A study of Mus musculus with 6 samples.

Results

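The genes described here encode the enzymes of glycolysis, lactate dehydrogenase, the pyruvate dehydrogenase complex, the tricarboxylic acid (TCA) cycle and pyruvate carboxylase. They were taken from a list of 31 symbols, by collecting every probe set of the array that the platform annotation pairs with a single symbol from that list. This gave 73 probe sets for 29 genes, out of 34958 probe sets for 18194 genes in all. Gpi1 and Eno1, for which no single-symbol probe set was found, were not analysed here.

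The study used translating ribosome affinity purification (TRAP), which pulls tagged ribosomes, with the mRNA they carry, from a tissue lysate, and read the RNA on Affymetrix mouse arrays. The IP group consisted of 3 samples of this ribosome-bound RNA from serotonin neurons. The unbound group consisted of 3 samples of what the labels call total tissue RNA, each tied by its label to the IP replicate of the same number. All 6 samples came from Slc6a4 JD60 mice on a mixed FVB and c57/bl6j background, adults of both sexes between 6 and 12 weeks old, and each was a pool of 5 mice. The tissue was midbrain and brainstem without the cerebellum. The tag is carried by a bacterial artificial chromosome transgene named for Slc6a4, the serotonin transporter gene, so which cells were tagged depends on where that transgene is expressed. Mice of both groups carried it, and the unbound RNA still held RNA of the serotonin neurons themselves. The groups therefore differ both in cell type and in ribosome binding, which cannot be told apart.

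Glycolysis splits glucose in the cytosol into pyruvate, which lactate dehydrogenase can convert to lactate and back. Inside mitochondria the pyruvate dehydrogenase complex turns pyruvate into acetyl-CoA for the TCA cycle, whose electrons feed the respiratory chain, while pyruvate carboxylase refills the cycle with oxaloacetate. In the brain, astrocytes are known for glycogen, lactate release and pyruvate carboxylation, and neurons for a high oxidative demand.

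Values are log2 expression values, with the IP arrays shifted by a constant so that the hybridisation controls match between groups. Each gene was read by its brightest probe set. The detection limit was set at log2 5, genes reaching it on 3 or more of the 6 arrays were tested, and all 29 genes passed. It was called higher or lower where limma's adjusted p was under 0.05 and the change at least 2-fold. Changes are IP minus unbound. Since the median change of the 10582 genes tested was -0.65, each change is also placed by its percentile among them. No level is set against that of another gene.

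Slc6a4, the check of the purification, was 35.5-fold higher in IP, at 14.20 in IP and 9.05 in unbound RNA. The 7 of 7 tested serotonin neuron markers were higher in IP, with a summed linear level of 105000 to 122000 over the IP arrays and of 3280 to 4290 over the unbound arrays. All 10 astrocyte markers were lower, with a summed level of 2590 to 2900 over the IP arrays and of 18700 to 27500 over the unbound arrays, and 5 of them lay below the detection limit on every IP array. The astrocyte gene Gja1 was at 10.95 in IP and 13.76 in unbound RNA, and Aqp4 at 7.85 in IP and 11.88 in unbound RNA. Of the oligodendrocyte markers 9 of 9 were lower, at a sum of 18600 to 26800 over the IP arrays and of 87500 to 107000 over the unbound arrays, with Mbp averaging 13.63 in IP and 15.30 in unbound RNA and Cnp averaging 12.89 in IP and 14.73 in unbound RNA. Of 6 microglial markers tested 5 were lower and 1, Aif1, was higher, and 4 of 4 tested endothelial markers were lower. The lower markers included 5 astrocyte, 1 oligodendrocyte, 3 microglial and 4 endothelial genes that lay below the limit on every IP array and passed the filter through unbound RNA alone, which fixed their direction. Aif1 and, of the serotonin neuron markers, Lmx1b passed through IP alone, which likewise fixed their direction. General neuronal markers were mixed, with 2 higher, 3 lower and 4 not called. The part of these other cell types in the results below was not tested. In bulk samples, fewer cells of a type and less RNA per cell cannot be told apart.

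Of the 29 genes, 1 was higher in IP, 6 were lower and 22 were not called. The higher gene was Ldha, which encodes the A (muscle-type) subunit of lactate dehydrogenase. The lower genes were Pdha1 and Dld of the pyruvate dehydrogenase complex, Cs, Ogdh and Suclg2 of the TCA cycle, and Pcx, which encodes pyruvate carboxylase. No glycolytic gene was called in either direction, although 6 of the 11 had an adjusted p under 0.05. The share of higher genes was 3.45%, against 10.4% of all genes tested, and that of lower genes was 20.7%, against 41.1%. The shares of all genes include genes that passed the filter through 1 group alone, which none of the 29 did. With the filter at log2 7, 913 of 8218 genes tested were higher and 3095 lower, and the 29 genes kept 1 and 6. The median change of the 29 genes was -0.46, which is 0.19 above that of all genes tested, and 16 of them lay above the median of all genes and 13 below it. That order turned after quantile normalisation, where the medians were -0.42 for the 29 genes and 0.04 for all genes tested, and without the filter on low values, where all genes had a median of -0.26.

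**Figure D1:**
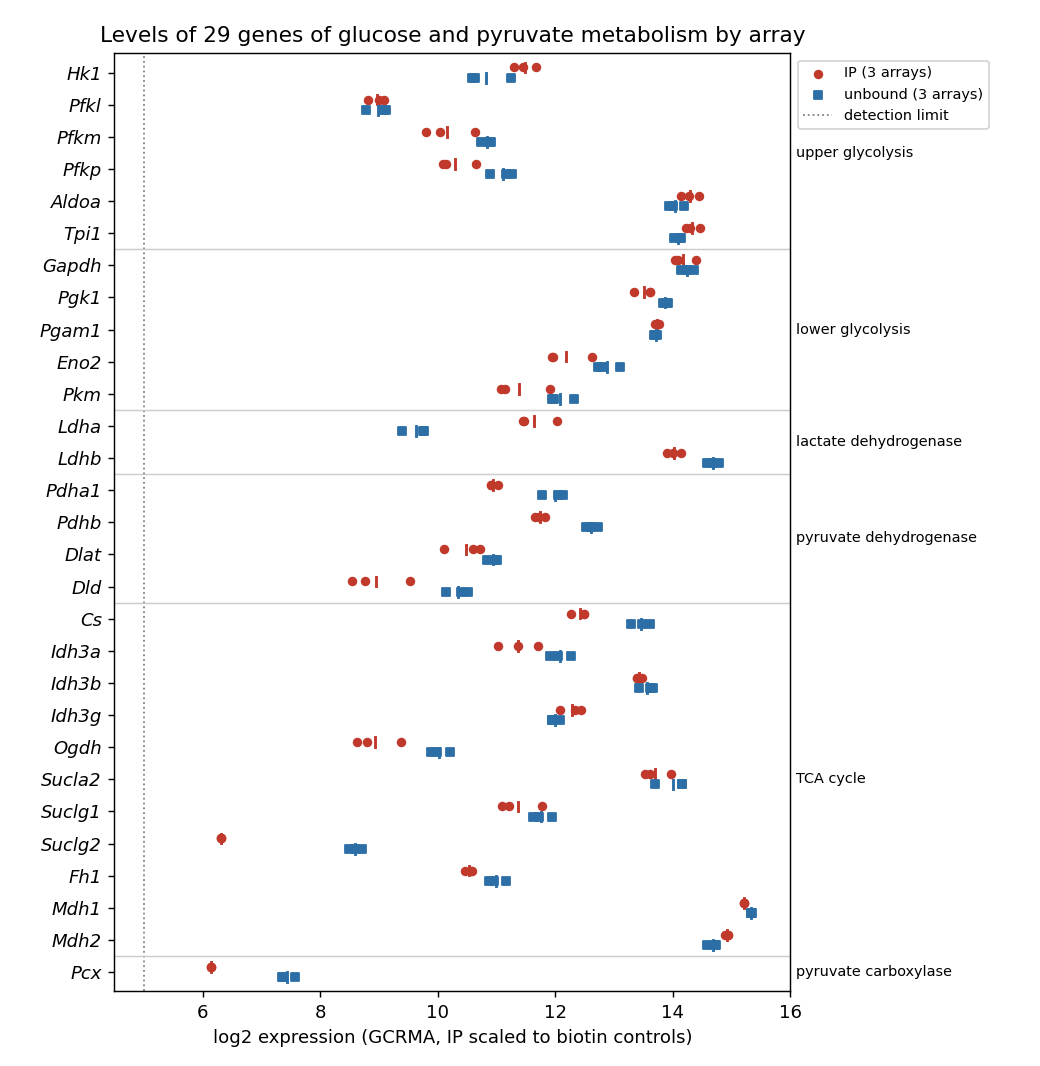
Log2 expression of the 29 genes on each array (horizontal axis), with circles for the 3 IP arrays, squares for the 3 unbound arrays, vertical ticks for group means and a dotted line at the detection limit. Ldha lies to the right in IP (11.64 in IP, 9.64 in unbound RNA), and Suclg2 and Pcx lie to the left. The group means of the 11 glycolytic genes lie less than 2-fold apart, with 2 higher and 5 lower in IP without overlap. Of all genes tested, 23.9% were higher and 59.1% lower in IP without overlap.

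Without a fold threshold, 19 of the 29 genes (65.5%) had an adjusted p under 0.05, against 78.9% of all genes tested. With the replicate pairs as a block it was 17, against 79.7%, since Mdh2 (adjusted p = 0.0747) and Dlat (adjusted p = 0.0550) no longer passed. The IP and unbound arrays did not overlap for 21 genes. IP was higher for 4 of them (13.8%, against 23.9% of all genes tested) and lower for 17 (58.6%, against 59.1%). The 4 were Hk1, Tpi1, Ldha and Mdh2. The replicates had a median SD of 0.16 in IP and 0.13 in unbound RNA over the 29 genes, with up to 0.52 in IP (Dld). Among all genes tested the median SD was smaller for IP (0.11) and larger for unbound RNA (0.18). The replicates also differed by a shared order. IP replicate 1 was the highest IP array for 17 of the 26 genes whose IP values were not identical. Its median over the 29 genes was 11.90, against 11.45 for IP replicate 2 and 11.46 for IP replicate 3. Unbound replicate 3 was the highest unbound array for 22 genes.

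In upper glycolysis, down to the triose phosphates, 0 of 6 genes were called, beside 10.4% higher and 41.1% lower of all genes tested. The median change was 0.11, against -0.65 for all genes tested. Hk1 encodes hexokinase 1, the main brain enzyme that phosphorylates glucose. Its log2 expression was 11.67, 11.45 and 11.31 on the IP arrays and 10.58, 10.63 and 11.25 on the unbound arrays. Every IP array was above every unbound array, the closest being IP replicate 3 and unbound replicate 3. The change of 0.66 ± 0.21 (SE) was 1.58-fold (adjusted p = 0.0262), short of the 2-fold threshold, and stood at the 84.0th percentile of all genes tested. A second, dimmer Hk1 probe set gave 6.68, 5.82 and 5.18 in IP and 5.12, 3.81 and 6.07 in unbound RNA, and its groups overlapped.

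Phosphofructokinase, which commits sugar to glycolysis, is built from liver, muscle and platelet-type subunits. Pfkl, the liver type, was at 9.00, 9.09 and 8.81 in IP and 9.12, 8.78 and 9.06 in unbound RNA, overlapping fully (change -0.02 ± 0.13 SE). Pfkm, the muscle type, was at 10.63, 9.80 and 10.05 in IP and 10.74, 10.86 and 10.90 in unbound RNA, a change of -0.68 ± 0.22 (SE, adjusted p = 0.0277). Pfkp, the platelet type, was at 10.65, 10.14 and 10.08 in IP and 11.26, 10.89 and 11.16 in unbound RNA, a change of -0.81 ± 0.18 (SE, adjusted p = 0.00705). For Pfkm and Pfkp the IP arrays lay below the unbound arrays without overlap, but neither reached 2-fold. Within arrays, Pfkp minus Pfkl was 1.32 in IP and 2.12 in unbound RNA, a difference of -0.79 (exact permutation p = 0.1, adjusted p = 0.129), and Pfkm minus Pfkl was 1.19 in IP and 1.85 in unbound RNA, with overlap (exact permutation p = 0.2, adjusted p = 0.225). The Pfkp value became -2.0 with the mean over a gene's probe sets, some of them below the detection limit on all IP arrays. A second Pfkp probe set was below the detection limit on all IP arrays, at 2.04, and at 7.08, 7.27 and 7.60 in unbound RNA, which made it at least 4.99-fold lower in IP. The probe sets of Pfkp therefore differed in size of change, and which stretch of the transcript each one reads was not analysed here.

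Aldoa encodes the aldolase that cleaves fructose bisphosphate in muscle and neurons. It was at 14.45, 14.14 and 14.27 in IP and 14.00, 13.93 and 14.19 in unbound RNA. The groups overlapped, and the change was 0.25 ± 0.12 (SE, adjusted p = 0.0946). Its other 4 tested probe sets changed by -0.07 to 0.52, so they did not share a sign. Tpi1, triose phosphate isomerase, was at 14.47, 14.23 and 14.29 in IP and 14.12, 14.01 and 14.15 in unbound RNA. Its arrays did not overlap, yet the change of 0.23 ± 0.09 (SE) missed the threshold (adjusted p = 0.0608). The other 2 Tpi1 probe sets changed by 0.21 and 0.46.

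In lower glycolysis, 0 of 5 genes were called, beside 10.4% higher and 41.1% lower of all genes tested. The median change was -0.36, against -0.65 for all genes tested. Gapdh, glyceraldehyde-3-phosphate dehydrogenase, was read here by the platform's own control probe sets, since the other probe sets that list it carry several symbols. The 3′ control was at 14.39, 14.04 and 14.09 in IP and 14.24, 14.13 and 14.36 in unbound RNA. The groups overlapped, with a change of -0.07 ± 0.12 (SE, adjusted p = 0.61). Pgam1, phosphoglycerate mutase, was at 13.77, 13.75 and 13.69 in IP and 13.74, 13.70 and 13.68 in unbound RNA, and its change of 0.03 ± 0.07 (SE) was smaller than its error.

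Pgk1, phosphoglycerate kinase, was at 13.34, 13.61 and 13.61 in IP and 13.91, 13.83 and 13.88 in unbound RNA, a change of -0.36 ± 0.10 (SE, adjusted p = 0.0162). Eno2, the neuronal enolase, was at 12.62, 11.95 and 11.96 in IP and 13.10, 12.73 and 12.79 in unbound RNA. Its change was -0.70 ± 0.21 (SE, adjusted p = 0.0237). Pkm, pyruvate kinase, which makes pyruvate in the last step, was at 11.90, 11.08 and 11.15 in IP and 11.97, 11.94 and 12.32 in unbound RNA, a change of -0.70 ± 0.25 (SE, adjusted p = 0.0393). In all 3 genes the IP arrays lay below the unbound arrays by less than 2-fold on average. Eno2 and Pkm both stood at the 48.6th percentile of all genes tested, and Pgk1 at the 57.9th.

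Lactate dehydrogenase is a tetramer of A and B subunits. The A subunit, from Ldha, is the main form in muscle, and the B subunit, from Ldhb, is the main form in heart. Ldha was at 12.02, 11.45 and 11.46 in IP and 9.74, 9.39 and 9.77 in unbound RNA. The lowest IP array was well above the highest unbound array. The mean was 11.64 ± 0.33 in IP and 9.64 ± 0.21 in unbound RNA (n = 3 each, SD), and Ldha was 4.02-fold higher in IP (change 2.01 ± 0.20 SE, limma adjusted p = 0.000146). This change was larger than that of 97.4% of the genes tested. Ldha had 1 tested probe set, so no second one checks it.

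Ldhb was at 13.89, 14.13 and 14.01 in IP and 14.66, 14.59 and 14.79 in unbound RNA. Every IP array was below every unbound array. The change of -0.67 ± 0.10 (SE, adjusted p = 0.00105) was 1.59-fold and not called, and at the 49.5th percentile it lay at the middle of all genes tested. The 3 other Ldhb probe sets changed by -1.38, -0.95 and -1.12, and the sets with -1.38 and -1.12 were called lower. The difference Ldhb minus Ldha within an array, in which a constant shift between groups cancels, was 1.87, 2.68 and 2.55 in IP and 4.92, 5.19 and 5.02 in unbound RNA. It was lower in IP by 6.39-fold (-2.68 ± 0.26 SE) without overlap. The exact two-sided permutation test, which left out the replicate pairs, gave p = 0.1 (adjusted p = 0.129 over 9 gene pairs). That is the smallest p that 3 unpaired arrays against 3 allow.

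The promoters of this pair are shown because Ldha was the 1 gene called higher and its partner subunit was not. Sequences are the 250 bases before the annotated start, from RefSeq on GRCm38.p6, 5′ to 3′ on the gene's strand. Capitals mark ACGTG on either strand, the core letters of hypoxia response elements, and overlapping matches run together. The first Ldha start (chr7:46845554-46845803, plus strand) and the Ldhb start (chr6:142507958-142508207, minus strand) read as follows.
Ldha: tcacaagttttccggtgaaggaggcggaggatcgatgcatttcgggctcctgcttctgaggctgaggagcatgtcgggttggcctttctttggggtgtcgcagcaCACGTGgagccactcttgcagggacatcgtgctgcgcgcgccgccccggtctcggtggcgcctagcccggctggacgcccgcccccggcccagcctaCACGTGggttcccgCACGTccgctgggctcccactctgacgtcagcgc
Ldhb: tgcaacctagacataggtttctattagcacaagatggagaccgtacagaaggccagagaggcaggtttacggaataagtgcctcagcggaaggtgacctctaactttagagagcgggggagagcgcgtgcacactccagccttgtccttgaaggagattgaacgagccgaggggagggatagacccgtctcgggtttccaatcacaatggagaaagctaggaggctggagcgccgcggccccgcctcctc
The Ldha window held 5 matches in 3 stretches, since CACGTG matches on both strands, and the window of a second annotated Ldha start held 0. The Ldhb window held 0. ACGTG was found in 16.6% of 32851 windows of this length and in 18 of the 46 windows of the listed genes (39.1%). Counted by gene, it was found for 11 of the 30 listed genes with a window, against 18.5% of 27025 genes. The GC box GGGCGG was found in 32.7% of all windows and 45.7% of those of the listed genes. GC content was 67.2% in the Ldha window and 56.4% in the Ldhb window. These are matches of letters in a window, and binding was not measured.

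**Figure D2:**
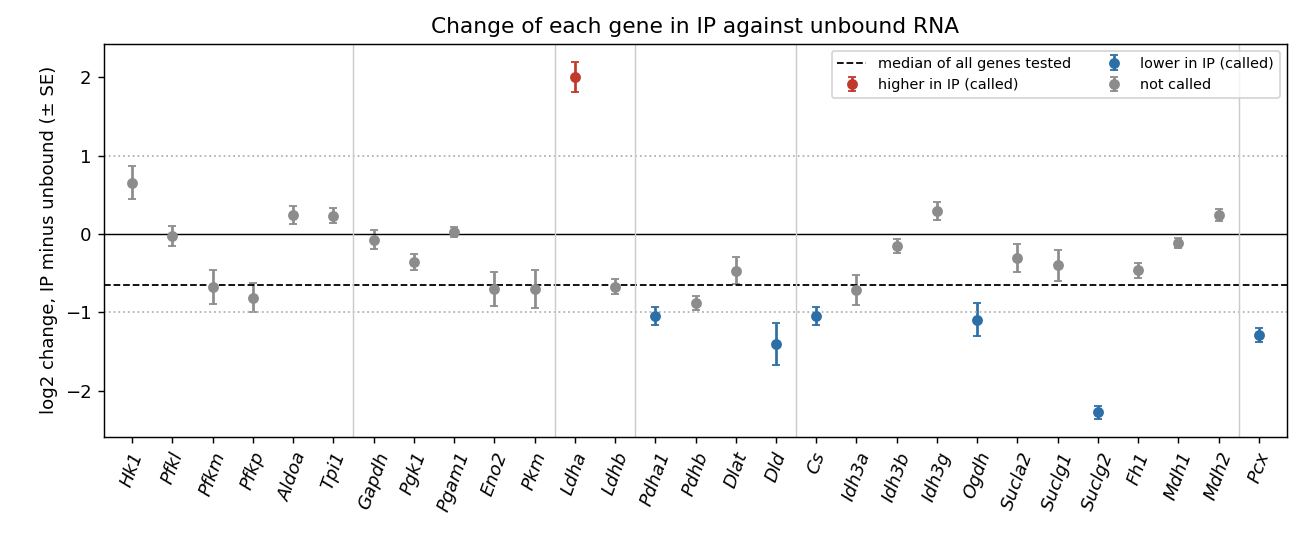
Log2 change of each of the 29 genes in IP against unbound RNA (points, with SE bars), in pathway order, with a dashed line at the median of all genes tested (-0.65) and dotted lines at 2-fold. Ldha is alone above the upper dotted line, and 6 genes, all from pyruvate dehydrogenase onward, are called lower.

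The 4 genes of the pyruvate dehydrogenase complex had a median change of -0.96, with 2 called lower, beside 41.1% lower of all genes tested. All 4 changes were below 0, but Pdhb (0.15) and Dlat (0.56) were above 0 with arrays centred on the median of all probe sets. Pdha1 encodes the alpha subunit of the E1 enzyme, the site of regulation by phosphorylation. It was at 11.03, 10.90 and 10.90 in IP and 12.14, 11.78 and 12.05 in unbound RNA. The groups lay apart, and Pdha1 was 2.06-fold lower in IP (-1.04 ± 0.12 SE, adjusted p = 0.000262). Leaving out unbound replicate 1 gave -0.97, just under 2-fold, so the call rests on that array. A second Pdha1 probe set was below the detection limit on every IP array and at 7.20, 7.31 and 7.27 in unbound RNA, at least 4.79-fold lower.

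Pdhb, the beta subunit of E1, was at 11.65, 11.72 and 11.82 in IP and 12.60, 12.52 and 12.73 in unbound RNA. The change of -0.88 ± 0.09 (SE, adjusted p = 0.000193) was 1.84-fold and not called. A dimmer Pdhb probe set, below the limit on IP replicate 1, fell by 2.04, with 4.95, 5.00 and 5.00 in IP and 6.89, 6.85 and 7.33 in unbound RNA. The difference Pdhb minus Pdha1 within arrays was 0.79 ± 0.15 in IP and 0.63 ± 0.14 in unbound RNA (n = 3 each, SD), and the groups overlapped (exact permutation p = 0.3, adjusted p = 0.3). Their change of 0.16 was 0.65 with the mean over probe sets.

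Dlat encodes the E2 transacetylase core. It was at 10.11, 10.71 and 10.60 in IP and 10.98, 10.84 and 11.01 in unbound RNA (-0.47 ± 0.17 SE, adjusted p = 0.0441), and its other 2 probe sets changed by -0.34 and -0.49. Dld encodes the E3 dihydrolipoamide dehydrogenase, which the 2-oxoglutarate dehydrogenase complex of the TCA cycle also uses. It was at 9.53, 8.54 and 8.77 in IP and 10.39, 10.14 and 10.52 in unbound RNA. IP replicate 1 was the closest to the unbound arrays, without overlap. Dld was 2.64-fold lower (-1.40 ± 0.27 SE, adjusted p = 0.00351), at the 31.8th percentile. With the mean over its probe sets, dim ones included, the change was -0.79 and not called.

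Other genes of this step were taken from a list of pyruvate carriers and of regulators of the complex. Of its 8 tested genes outside the 29, 4 were lower and 4 not called, beside 41.1% lower of all genes tested. Pdk4, a kinase that switches the complex off, was at 4.68, 5.87 and 4.63 in IP and 8.41, 8.08 and 7.75 in unbound RNA (-3.02 ± 0.37 SE, adjusted p = 0.000443). IP replicate 2 alone was above the detection limit, so this size rests partly on values below it. Pdpr, the regulatory subunit of the opposing phosphatase, fell by 2.97 (± 0.12 SE, adjusted p = 3.11e-06), at 7.74 in IP and 10.71 in unbound RNA. Pdk2, below the limit on all IP arrays and so of a direction fixed by the filter, was at least 1.22-fold lower, and Pdk3 changed by -1.21 (adjusted p = 0.000739), while Pdk1 changed by -0.03 and Mpc1, a subunit of the mitochondrial pyruvate carrier, by 0.28 (adjusted p = 0.292). Pdk1, Pdk3 and Mpc1 were chosen after their values were seen.

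The 11 TCA cycle genes had a median change of -0.40. Of these, 3 were called lower and 8 not called, beside 41.1% lower of all genes tested. Cs encodes citrate synthase, the entry enzyme. It was at 12.26, 12.49 and 12.49 in IP and 13.60, 13.29 and 13.47 in unbound RNA, and was 2.06-fold lower (-1.04 ± 0.12 SE, adjusted p = 0.000283). The groups lay well apart. The change was -0.97 without IP replicate 1 and also -0.97 without unbound replicate 1, so the call was lost in both cases. With the mean over its probe sets it was -0.75 and likewise not called. Its other 2 probe sets changed by -0.91 and -0.29 and were not called.

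Isocitrate dehydrogenase 3, the NAD-dependent enzyme, is made of a catalytic alpha subunit (Idh3a) and regulatory beta and gamma subunits. Idh3a was at 11.70, 11.03 and 11.37 in IP and 12.05, 11.92 and 12.27 in unbound RNA (-0.71 ± 0.19 SE, adjusted p = 0.0146), below the unbound arrays without overlap. Idh3b was at 13.47, 13.39 and 13.39 in IP and 13.61, 13.43 and 13.66 in unbound RNA (-0.15 ± 0.09 SE). Idh3g was at 12.08, 12.34 and 12.44 in IP and 11.95, 11.94 and 12.09 in unbound RNA (0.29 ± 0.11 SE, adjusted p = 0.0551). The regulatory subunits overlapped between the groups, and each had a second probe set of the other sign. Within arrays, Idh3g minus Idh3a was 0.38, 1.31 and 1.07 in IP and -0.10, 0.02 and -0.18 in unbound RNA. It was higher in IP by 1.00 ± 0.28 (SE) without overlap (exact permutation p = 0.1, adjusted p = 0.129). Idh3b minus Idh3a was likewise higher by 0.56 ± 0.18 (SE, exact permutation p = 0.1, adjusted p = 0.129), but by 0.19 after quantile normalisation and with the mean over probe sets. Both other tested Idh3a probe sets were called lower, at -1.33 and -1.23.

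Ogdh encodes the E1 subunit of the 2-oxoglutarate dehydrogenase complex. It was at 9.37, 8.63 and 8.80 in IP and 9.89, 9.99 and 10.21 in unbound RNA, without overlap. Ogdh was 2.14-fold lower (-1.10 ± 0.21 SE, adjusted p = 0.00342), and the change was -0.94 without IP replicate 2, so that its call rests on that array. A second probe set was below the detection limit on all IP arrays and at 6.55, 6.58 and 6.77 in unbound RNA, at least 3.09-fold lower.

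Succinyl-CoA synthetase pairs one alpha subunit (Suclg1) with a beta subunit that forms ATP (Sucla2) or GTP (Suclg2). Suclg2 had the largest fall of the 29 genes. It was at 6.32 on each of the 3 IP arrays and at 8.59, 8.49 and 8.70 in unbound RNA, all apart by over 2 log2 units. It was 4.84-fold lower in IP (-2.28 ± 0.08 SE, adjusted p = 2.37e-06), at the 17.5th percentile of all genes tested. The probe set carries the suffix by which Affymetrix marks probes shared between transcripts of different genes, and its values were the same to every digit on the IP arrays. A second Suclg2 probe set was below the detection limit in IP, at 2.10, and at 5.80, 5.53 and 5.74 in unbound RNA, at least 1.62-fold lower.

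Sucla2 was at 13.96, 13.62 and 13.53 in IP and 14.16, 13.69 and 14.16 in unbound RNA (-0.30 ± 0.18 SE, adjusted p = 0.166). Suclg1 was at 11.78, 11.10 and 11.21 in IP and 11.73, 11.62 and 11.94 in unbound RNA (-0.40 ± 0.20 SE, adjusted p = 0.111). Both overlapped between groups. Suclg2 minus Sucla2 within arrays was -7.64, -7.30 and -7.21 in IP and -5.57, -5.21 and -5.46 in unbound RNA. The GTP-forming subunit was thus lower in IP relative to the ATP-forming one by 3.93-fold (-1.97 ± 0.17 SE) without overlap (exact permutation p = 0.1, adjusted p = 0.129). The difference was -0.79 after quantile normalisation. This compares changes and not the levels of the subunits, which different probes read.

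Fh1, fumarate hydratase, was at 10.57, 10.47 and 10.58 in IP and 10.96, 10.88 and 11.16 in unbound RNA (-0.46 ± 0.10 SE, adjusted p = 0.00561), apart by less than 2-fold. Mdh1, the cytosolic malate dehydrogenase of the malate-aspartate shuttle, was at 15.21 on every IP array and 15.32, 15.32 and 15.35 in unbound RNA (-0.12 ± 0.07 SE, adjusted p = 0.145). Mdh2, the mitochondrial enzyme of the cycle, was at 14.89, 14.93 and 14.93 in IP and 14.72, 14.58 and 14.73 in unbound RNA (0.24 ± 0.08 SE, adjusted p = 0.0278). These differences are small against the 2-fold threshold, and one of the other Mdh1 probe sets changed by 0.00. Mdh2 minus Mdh1 within arrays was -0.30 in IP and -0.65 in unbound RNA, higher in IP by 0.36 ± 0.05 (SE, exact permutation p = 0.1, adjusted p = 0.129).

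The remaining genes of the cycle that were measured, 8 from the same list, held 1 lower gene and 7 not called. Of all genes tested, 41.1% were lower. The lower gene of the 8 was Aco1, the cytosolic aconitase, at 8.15 in IP and 9.43 in unbound RNA (-1.27 ± 0.17 SE, adjusted p = 0.000573). Genes for the 4 subunits of succinate dehydrogenase, named after their values were seen, changed by -0.42 (Sdha), 0.33 (Sdhb), -0.26 (Sdhc) and -0.04 (Sdhd).

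Pcx, pyruvate carboxylase, is an enzyme known in brain mainly from astrocytes. It was at 6.15 on each IP array and at 7.35, 7.37 and 7.57 in unbound RNA, with no overlap. Pcx was 2.44-fold lower (-1.29 ± 0.09 SE, adjusted p = 2.97e-05), at the 34.3rd percentile. The 3′ control probe set for the same gene was at 6.16 on each IP array and at 6.84, 6.89 and 6.88 in unbound RNA, a change of -0.72 that was not called. Astrocyte markers had a median change of -3.74, a size that rests partly on 5 of 10 genes below the detection limit on every IP array. The part of astrocyte RNA in the Pcx value was not tested. Of 4 tested genes of anaplerosis and gluconeogenesis outside the 29, 2 were lower, beside 41.1% lower of all genes tested. They were Me3 (-1.70, adjusted p = 1.21e-05) and Me2 (-1.42, adjusted p = 1.77e-05), both mitochondrial malic enzymes. Each had the same value on all 3 IP arrays (Me3 5.86, Me2 7.49), which makes the IP spread too small.

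**Figure D3:**
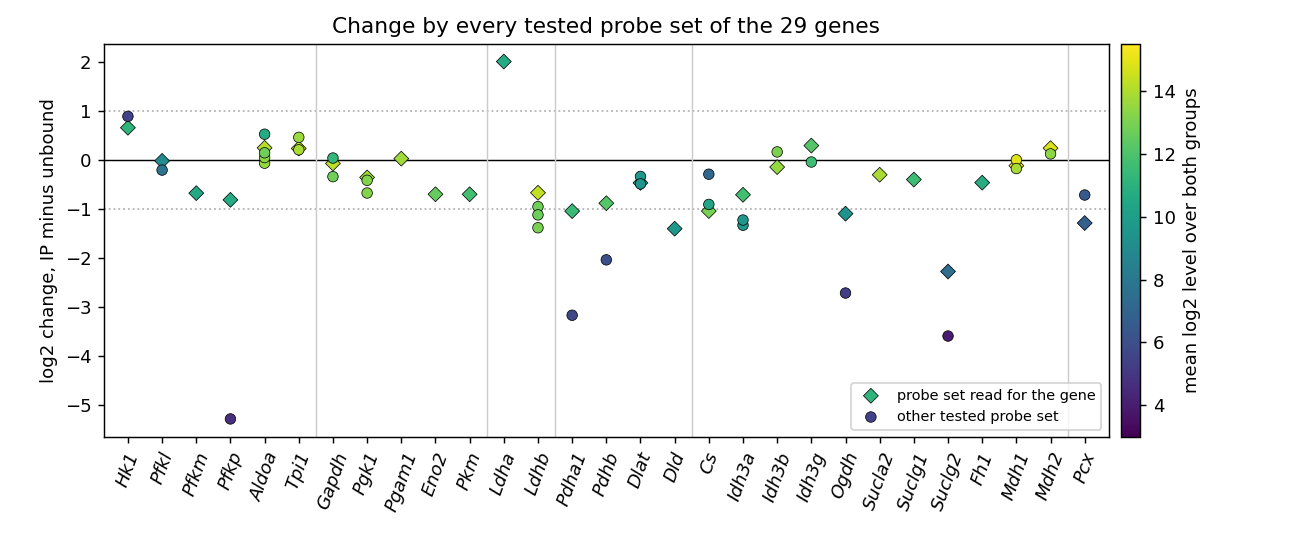
Log2 change in IP against unbound RNA for each of the 61 tested probe sets of the 29 genes, coloured by mean log2 level. Diamonds mark the probe set read for the gene, circles the others, and dotted lines 2-fold. The lowest points of Pfkp, Suclg2, Pdha1 and Ogdh come from probe sets that no IP array read above the limit, so their heights and order carry no size beyond the bounds of at least 4.99-, 1.62-, 4.79- and 3.09-fold lower.

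When every probe set was tested by itself, 1 of 61 was higher (1.64%, against 10.4% of all probe sets tested) and 15 were lower (24.6%, against 42.9%). The lower ones belonged to 10 genes, which added Pfkp, Ldhb, Pdhb and Idh3a to the 6 called before. Of these 15, 4 were below the detection limit on every IP array, and for these the filter fixed the direction. The remaining 12 of the 73 probe sets were below the limit on all 6 arrays and were not tested. Of 20 genes with over 1 tested probe set, 5 had changes of both signs (Aldoa, Gapdh, Idh3b, Idh3g and Mdh1).

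Control probe sets for the 5′, middle and 3′ parts of a transcript were read for Gapdh, with Actb beside it. Gapdh had 14.17 ± 0.19 at the 3′ part in IP and 14.24 ± 0.11 in unbound RNA, against 11.33 ± 0.28 at the 5′ part in IP and 11.29 ± 0.13 in unbound RNA (n = 3 each, SD). The 3′ minus 5′ difference was 2.85 ± 0.10 in IP and 2.96 ± 0.04 in unbound RNA, so the fractions differed little for this gene. For Actb it was 3.68, 5.04 and 4.69 in IP and 3.95, 4.09 and 4.01 in unbound RNA, so IP replicate 1 lay below and the other IP arrays above all unbound arrays. The 5′ and middle Pcx controls were below the detection limit on all 6 arrays.

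**Figure D4:**
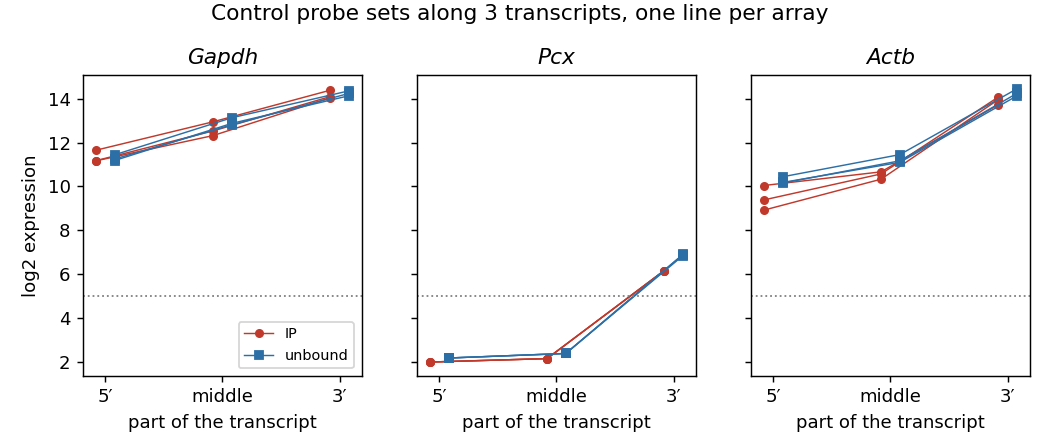
Log2 expression of the platform's control probe sets at the 5′, middle and 3′ parts of Gapdh, Pcx and Actb, with 1 line per array (circles IP, squares unbound) and a dotted line at the detection limit. Signal is highest at the 3′ part on every array, and Pcx passes the limit only there.

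Further pathway genes bordering glycolysis were read from lists. Aldoc, the aldolase known from astrocytes and Purkinje cells, was at 13.03, 12.65 and 12.66 in IP and 14.06, 13.92 and 14.15 in unbound RNA and was lower (-1.26 ± 0.13 SE, adjusted p = 0.000217). Aldoc minus Aldoa within arrays was -1.42, -1.49 and -1.61 in IP and 0.06, -0.01 and -0.04 in unbound RNA. The pair changed unequally by -1.51 ± 0.06 (SE, exact permutation p = 0.1, adjusted p = 0.129), without overlap, and by -2.94 with the mean over probe sets.

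Of 3 tested bifunctional regulators of phosphofructokinase, 2 were lower and 1 was not called, beside 41.1% lower of all genes tested. Pfkfb2 was at least 8.94-fold and Pfkfb4 at least 1.30-fold lower. Both were below the detection limit on all IP arrays, so that the filter fixed their direction. Pfkfb3, named after its values were seen, was at 8.11 in IP and 8.74 in unbound RNA (-0.63) and was not called. Hk2, the one other hexokinase tested, was at 5.21, 5.87 and 6.44 in IP and 5.75, 4.65 and 4.97 in unbound RNA, overlapping (0.72 ± 0.40 SE, adjusted p = 0.143). Of 8 genes of the malate-aspartate and glycerol phosphate shuttles, 3 were lower, beside 41.1% lower of all genes tested. Gpd1, the cytosolic glycerol-3-phosphate dehydrogenase, was at least 15.2-fold lower, and the mitochondrial Gpd2 fell by 2.08 (adjusted p = 0.000211). Slc25a13, an aspartate-glutamate carrier, was at least 1.68-fold lower. Gpd1 and Slc25a13 were below the limit on all IP arrays, so that the filter fixed their direction.

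In the pentose phosphate pathway 1 of 6 tested genes was higher and 1 lower, against 10.4% and 41.1% of all genes tested. Pgls, the lactonase of its oxidative branch, was at 8.11 on every IP array and 6.14, 6.32 and 6.54 in unbound RNA (1.78 ± 0.11 SE, adjusted p = 2.37e-05). Taldo1, transaldolase, was at 11.02 in IP and 12.22 in unbound RNA (-1.20 ± 0.16 SE, adjusted p = 0.000646). Over all lists, 41 genes outside the 29 were tested, of which 1 was higher (2.44%, against 10.4% of all genes tested), 14 were lower (34.1%, against 41.1%) and 26 were not called, with a median change of -0.74. The direction of 5 of the 14 was fixed by the filter.

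How IP stands to unbound RNA depends on the scaling, because the groups were normalised separately. Ldha was called higher under 5 of 6 scalings, with changes of 2.01 to 3.04, and at -0.67 after scaling to the poly-A controls, where nearly all genes were lower. Suclg2 was called lower under all 6. Dld, Cs and Pcx were called lower under 3 of 6, and Pdha1 and Ogdh under 2 of 6. These 6 genes had changes below 0 in every scaling, while each of the other 22 genes changed sign in at least 1 scaling. Counted over the 29 genes, 1 was higher and 3 were lower without scaling, against 14.1% and 35.2% of all genes tested. Quantile normalisation likewise gave 1 higher and 3 lower, against 23.8% and 23.5%. Centring on the median of expressed probe sets gave 6 higher and 1 lower, against 27.1% and 24%, and centring on the median of all probe sets gave 8 and 1, against 33.6% and 20.2%. With the poly-A controls 0 were higher and 28 lower, against 0.34% and 97.1%.

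**Figure D5:**
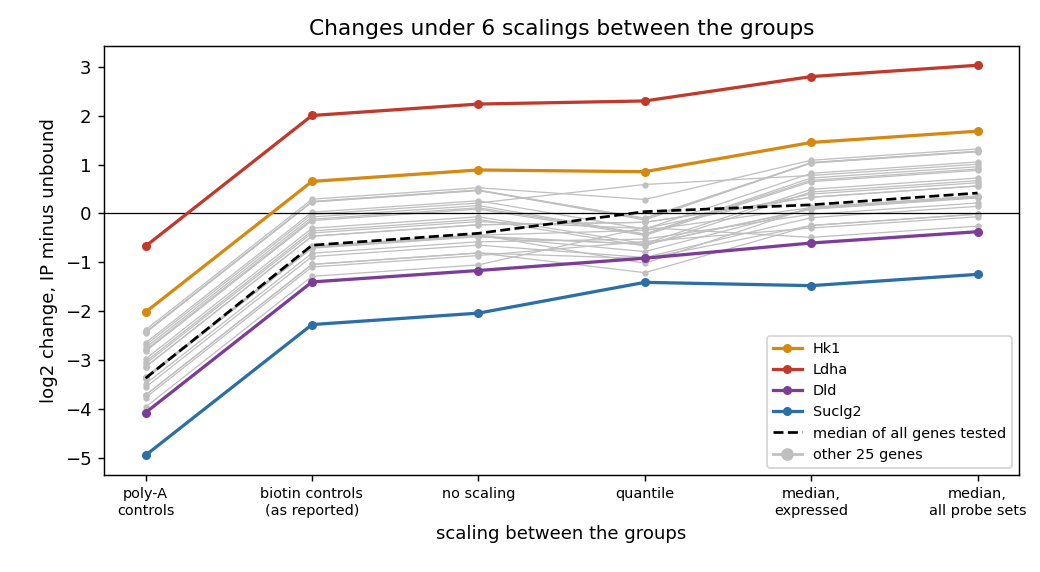
Log2 change in IP against unbound RNA of each of the 29 genes (lines) under 6 scalings between the groups, with the median of all genes tested as a dashed line. Ldha stays above and Suclg2 below the dashed line throughout, and the 6 genes called lower stay below 0, while the other lines cross 0.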

How the data were processed

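Arrays of 3 IP and 3 unbound samples, each made from 20 ng of total RNA with a 2-cycle amplification, gave 45101 values per array. The deposited log2 values were made by the authors with GCRMA within each group of replicates, per the submitters' processing notes and the design text. The version of GCRMA was not stated there, and scanner files were not used here. Per the labels, replicates are biological, and their number limits the precision.

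Following the design text, the IP values were shifted by -0.23, the mean group difference over 18 biotinylated hybridisation controls. The platform annotation named the genes, control probe sets for Gapdh and Pcx included, and each was read by its brightest single-symbol probe set. Genes with at least 3 of 6 arrays at log2 5 were tested with limma 3.58.1 (lmFit and eBayes, R 4.3.3) with group as the one term, as a two-sided test adjusted by Benjamini-Hochberg over all 10582 genes. In folds written as "at least", dim arrays were set at the limit of 5. The within-array differences used an exact two-sided permutation test over all 6 arrays, which left out the replicate pairs. It was adjusted over 9 gene pairs. Enolase could not be paired. The fit was tested on simulated data with independent normal noise. These held none of the identical IP values of the real data, so the test does not bear on p-values that rest on such values.

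All 29 genes found are described, with the values of the probe set read for each. Their other tested probe sets enter the counts and the plot, and are described where they bear on a result. Of every pathway list, up to 3 called genes each way are named, or 2 where none was called, and of marker lists the 2 highest probe set values in unbound RNA for astrocytes and oligodendrocytes. Members and lists were chosen with earlier results of these data known. Alternatives were other scalings, filters and probe set rules, the replicate block, leaving out identical values, and leaving out each replicate.

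Labels tie each unbound sample to its replicate. Deviations from group means of same-numbered samples correlated at 0.268, 0.164 and 0.104 across genes. All were over 0.1, so the numbers were taken to pair the samples in the replicate block. The main fit and the permutation test left this pairing out. IP replicate 3 correlated more with unbound replicate 2 (0.208) than with its own, which goes against the numbering.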

Additional observations from a re-analysis of the deposited data

How the results depend on the processing

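Counts of called genes were 1 higher and 6 lower as reported. They were 1 and 3 without scaling (median change of the 29 genes -0.23) and 1 and 3 after quantile normalisation (median -0.42). Centring arrays on the median of expressed probe sets gave 6 and 1 (median 0.33), centring on all probe sets 8 and 1 (median 0.57), and the poly-A controls 0 and 28 (median -3.14), so the direction of the median turned with the centring. The median of all genes tested was -0.41 unscaled, 0.04 after quantile normalisation, 0.18 and 0.42 after the centrings, and -3.37 with the poly-A controls. Every probe set by itself gave 15 lower. With the replicate block, pairing samples of the same number, 1 was higher and 6 were lower, and it changed no call at 2-fold among the 29 genes. Leaving out probe sets identical on a group's arrays gave 1 and 4 among 26 genes, since Suclg2, Mdh1 and Pcx dropped out. The mean over probe sets gave 1 and 6, but of these 6 only 3 were the same (Pdha1, Ogdh and Suclg2). Cs (-0.75) and Dld (-0.79) were no longer called, Pcx was not tested, and Ldhb (-1.03), Pdhb (-1.46) and Pfkp (-2.13) were called. The Pfkp mean took in probe sets below the detection limit on all IP arrays, so its size is not exact. Leaving out 1 replicate gave 1 higher throughout, 4 to 6 lower and medians of -0.52 to -0.38.

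Signs turned as follows, and the cause was not tested beyond the shift itself. Without scaling the changes were 0.16 (Gapdh), 0.089 (Idh3b), 0.12 (Mdh1) and 0.22 (Pfkl). After quantile normalisation they were -0.10 (Aldoa), -0.13 (Mdh2), 0.59 (Pfkl), -0.32 (Pgam1) and -0.10 (Tpi1). With the median of expressed probe sets they were 0.33 (Dlat), 0.10 (Eno2), 0.33 (Fh1), 0.73 (Gapdh), 0.087 (Idh3a), 0.65 (Idh3b), 0.13 (Ldhb), 0.68 (Mdh1), 0.78 (Pfkl), 0.12 (Pfkm), 0.44 (Pgk1), 0.10 (Pkm), 0.50 (Sucla2) and 0.40 (Suclg1). With the median of all probe sets they were 0.56 (Dlat), 0.33 (Eno2), 0.57 (Fh1), 0.96 (Gapdh), 0.32 (Idh3a), 0.88 (Idh3b), 0.36 (Ldhb), 0.91 (Mdh1), 0.15 (Pdhb), 1.01 (Pfkl), 0.35 (Pfkm), 0.22 (Pfkp), 0.67 (Pgk1), 0.33 (Pkm), 0.73 (Sucla2) and 0.63 (Suclg1). With the poly-A controls they were -2.43 (Aldoa), -2.02 (Hk1), -2.38 (Idh3g), -0.67 (Ldha), -2.44 (Mdh2), -2.65 (Pgam1) and -2.44 (Tpi1). Without 1 replicate, Pfkl ranged from -0.12 to 0.060. The 9 differences within arrays kept their sign in every alternative. The mean over probe sets included sets below the detection limit, so sizes under it are not exact. Quantile normalisation and the mean over probe sets moved them most: Suclg2 minus Sucla2 was -0.79 and -2.71, Idh3b minus Idh3a 0.19 in both, Ldhb minus Ldha -3.33 and -3.04, Pfkp minus Pfkl -1.12 and -2.0, and Aldoc minus Aldoa -1.38 and -2.94.

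Identical values on the 3 IP arrays, found for 20.1% of tested genes against 0.595% in unbound RNA, make the IP spread too small. Suclg2, Mdh1 and Pcx were read by such probe sets. Probes shared between transcripts, signal near the detection limit and the small number of arrays limit single probe sets.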
